A study of Mus musculus with 10 samples.

Results

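The genes described here are 8 transcripts that mark mast cells, chosen by symbol as known mast cell genes from the 55487 genes of the deposited count table: Tpsb2, Cma1, Mcpt4, Cpa3, Fcer1a, Ms4a2, Kit and Hdc. They were measured by RNA sequencing in the RPE/choroid complex of the mouse eye, the retinal pigment epithelium with the vascular and pigmented layer behind it. The 5 libraries called ADQ came from iDTR Adiponectin-Cre mice and the 5 control libraries from iDTR mice, each sample of both groups labelled as given diphtheria toxin by intraperitoneal injection. iDTR is the allele Gt(ROSA)26Sortm1(HBEGF)Awai, on C57BL/6 in the series text, a diphtheria toxin receptor that is silent until Cre removes a stop signal, so both groups carry the receptor gene and only ADQ mice can express it, in cells in which the adiponectin promoter has driven Cre. The series text gives daily toxin over 7 weeks for the mice with Cre; it gives no time for the controls, and neither age nor number of animals per sample. Replicates are separate samples in the labels, with nothing on separate animals, so the p-values reflect sample-to-sample spread alone, part or all of which may be technical.

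Mast cells are long-lived immune cells that settle in connective tissue, along vessels and nerves, and the choroid holds a resident population of them. They store tryptases, chymases, a carboxypeptidase and histamine in granules. Antigen bound to IgE on the high-affinity receptor FcεRI triggers release of the granules, and the receptor tyrosine kinase KIT, bound by stem cell factor, keeps the cells alive. Mouse mast cells of connective tissue are known for Tpsb2, Cma1, Mcpt4 and Cpa3, and those of mucosa for Mcpt1 and Mcpt2.

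Libraries held 43591245 to 64087660 counts in ADQ and 47997064 to 50974422 in control. Adipoq, the gene of adiponectin, marks the targeted fat cells and is not itself the altered gene. It had 77, 23, 70, 8 and 64 counts in ADQ 1 to 5, against 177, 402, 240, 237 and 0 counts in control 1 to 5 (log2 fold change -2.23, edgeR adjusted p = 0.369). Control 5 thus goes against the order of the other controls. Levels below are counts set to a common library total (CPM) and scaled by TMM, a factor per library that evens out its overall composition, and fold changes are ADQ over control. A gene was called when its edgeR quasi-likelihood p, adjusted by Benjamini-Hochberg over all 20684 genes tested, was under 0.05.

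The 4 granule protease transcripts were lower in 4 of the 5 ADQ libraries than in every control library, while ADQ 1 lay among the controls, and no protease passed the test over all 10 libraries. Their log2 fold changes ran from -1.36 to -1.0. In bulk tissue, fewer mast cells and less of a transcript per mast cell cannot be told apart.

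Tpsb2, a tryptase of mast cell granules (ENSMUSG00000033825, GRCm38 chromosome 17, 25366305 to 25369098, plus strand), stood at 30.0, 9.06, 4.88, 4.24 and 8.43 CPM in ADQ 1 to 5, against 26.6, 35.1, 10.7, 11.3 and 30.2 CPM in control 1 to 5. ADQ 1 was nearly as high as control 5, and the other 4 ADQ libraries lay under the lowest control. The means were 11.3 ± 10.6 CPM in ADQ and 22.8 ± 11.2 CPM in control (SD, n = 5 each; log2 fold change -1.01, SE 0.62, edgeR adjusted p = 0.488).

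Cma1, a chymase of connective tissue mast cells (ENSMUSG00000022225, chromosome 14, 55941451 to 55944675, minus strand), stood at 19.3, 4.83, 4.08, 2.64 and 5.69 CPM in ADQ 1 to 5, against 14.5, 20.1, 8.86, 8.88 and 20.5 CPM in control 1 to 5. ADQ 1 again lay inside the control range and the other ADQ libraries below it. The means were 7.31 ± 6.80 CPM in ADQ and 14.6 ± 5.74 CPM in control (SD, n = 5 each; log2 fold change -1.0, SE 0.55, edgeR adjusted p = 0.447).

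Mcpt4, the chymase of the mouse taken to be closest in function to the human enzyme (ENSMUSG00000061068, chromosome 14, 56059629 to 56062313, minus strand), lies in the same protease cluster as Cma1. It stood at 8.27, 2.68, 2.02, 1.1 and 3.20 CPM in ADQ 1 to 5, against 6.30, 12.2, 5.03, 4.33 and 8.44 CPM in control 1 to 5. The order was like that of Cma1, with ADQ 4 lowest of all. The log2 fold change was -1.07 (SE 0.50, edgeR adjusted p = 0.369), from means of 3.45 ± 2.80 CPM in ADQ and 7.26 ± 3.16 CPM in control (SD, n = 5 each).

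Cpa3, the carboxypeptidase stored with the chymases (ENSMUSG00000001865, chromosome 3, 20215620 to 20242181, minus strand), stood at 8.18, 3.35, 2.73, 1.3 and 2.49 CPM in ADQ 1 to 5, against 10.5, 15.9, 4.78, 3.60 and 11.6 CPM in control 1 to 5. Control 3 and control 4 were the lowest controls here, as in the other proteases. The log2 fold change was -1.36 (SE 0.54, edgeR adjusted p = 0.312), from means of 3.61 ± 2.66 CPM in ADQ and 9.27 ± 5.08 CPM in control (SD, n = 5 each).

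**Figure D1:**
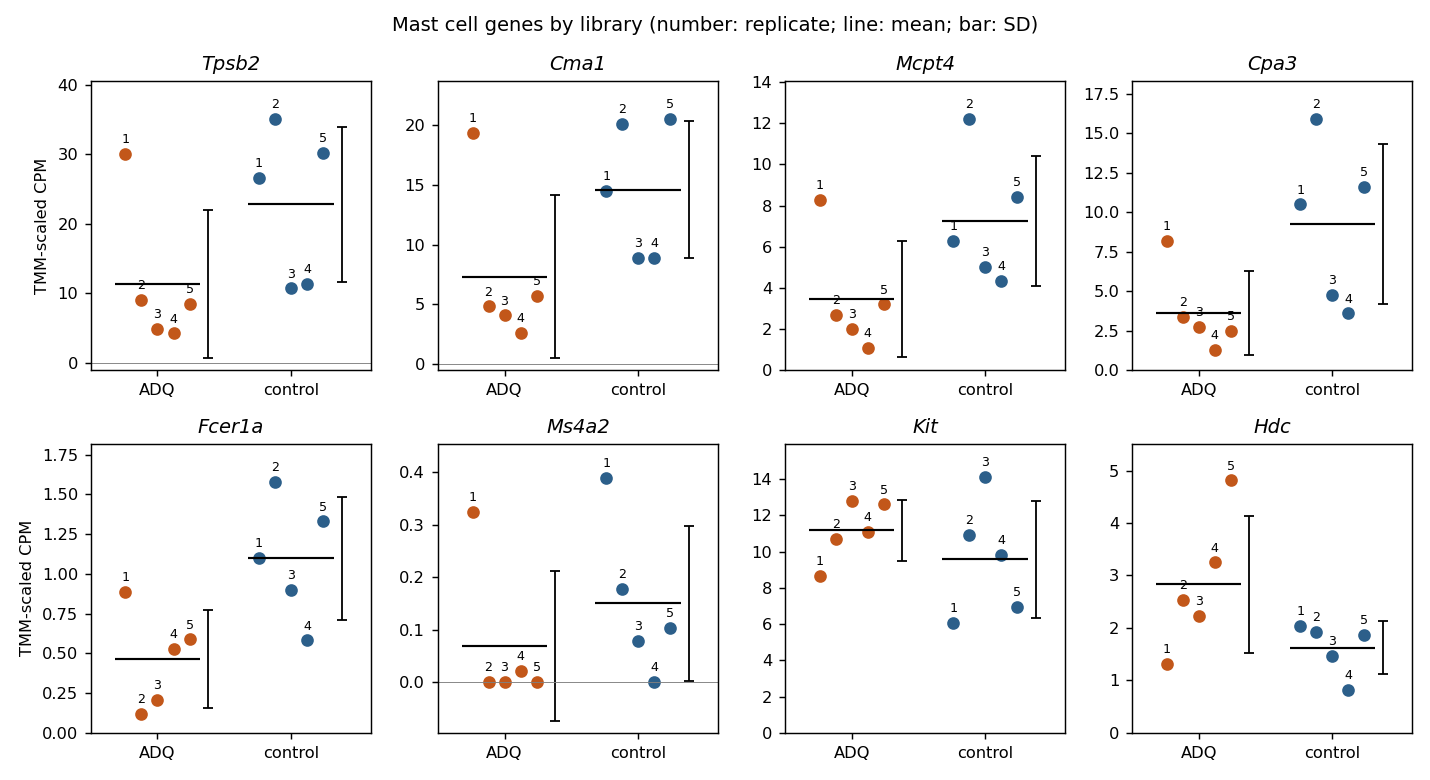
TMM-scaled CPM of the 8 mast cell genes, one panel per gene, with ADQ libraries in orange and control libraries in blue, each point labelled with its replicate number; the line is the mean and the bar the SD (n = 5). In Tpsb2, Cma1, Mcpt4 and Cpa3 ADQ 1 sits among the controls and ADQ 2 to 5 sit below the lowest control, while in Hdc ADQ 5 is highest at 4.81 CPM.

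The 4 protease transcripts varied together from library to library. Over the 10 libraries the SD of log2 CPM was 1.14 for Cpa3, 1.05 for Mcpt4, 1.05 for Cma1 and 1.12 for Tpsb2. The SD of the log2 ratio to Tpsb2 was much smaller, at 0.32 for Cpa3, 0.33 for Mcpt4 and 0.24 for Cma1. Tpsb2 made up 35.6 to 45.7% of the counts of the 4 genes in ADQ and 36.3 to 46% in control. Cma1 made up 24.3 to 29.8% in ADQ and 24.2 to 31.6% in control. The scarcer Cpa3 (12.4 to 19.9% in ADQ, 12.8 to 19.1% in control) and Mcpt4 (11.8 to 16.2% in ADQ, 10.9 to 17.2% in control) varied more in relative terms. The ranges of these shares overlapped in both groups, while the summed level ran from 9.27 to 65.7 CPM in ADQ and from 28.1 to 83.3 CPM in control.

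**Figure D2:**
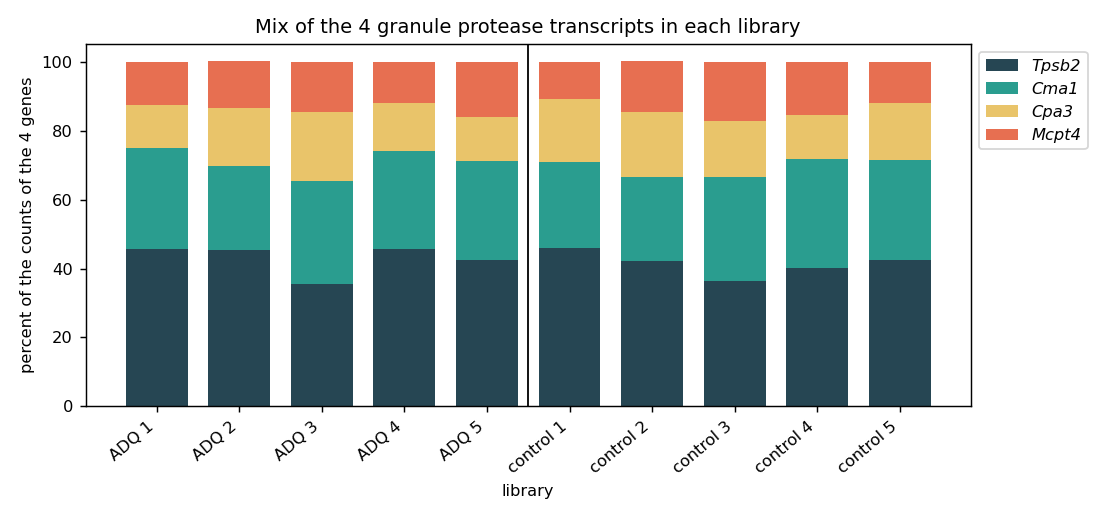
Share of the counts of Tpsb2, Cma1, Cpa3 and Mcpt4 together, in percent, taken by each gene in each library (ADQ left of the line, control right). Over the 10 libraries Tpsb2 takes 35.6 to 46%, Cma1 24.2 to 31.6%, Cpa3 12.4 to 19.9% and Mcpt4 10.9 to 17.2%.

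Promoter sequence was shown for the 3 proteases that RefSeq lists (GRCm38.p6) and for Hdc, since the proteases moved together among libraries and Hdc moved otherwise. Each window runs from 250 bases before the start annotated in RefSeq to 50 bases after it, written 5′ to 3′ along the gene. For Hdc the whole window lies inside the gene as annotated in GENCODE M21, which starts at 126619299 on the minus strand. Capitals mark AGATAA on either strand, also with G as the last letter and, in both forms, with T as the first, the letters bound by GATA factors, a family that includes the mast cell regulator GATA2.
Cpa3 (chr3:20242132-20242431, minus strand): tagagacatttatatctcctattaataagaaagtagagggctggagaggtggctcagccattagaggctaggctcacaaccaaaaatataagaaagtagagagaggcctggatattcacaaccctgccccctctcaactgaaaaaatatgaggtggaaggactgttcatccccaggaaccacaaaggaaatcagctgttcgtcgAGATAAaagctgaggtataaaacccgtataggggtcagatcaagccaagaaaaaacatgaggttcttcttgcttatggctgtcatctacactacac
Cma1 (chr14:55944626-55944925, minus strand): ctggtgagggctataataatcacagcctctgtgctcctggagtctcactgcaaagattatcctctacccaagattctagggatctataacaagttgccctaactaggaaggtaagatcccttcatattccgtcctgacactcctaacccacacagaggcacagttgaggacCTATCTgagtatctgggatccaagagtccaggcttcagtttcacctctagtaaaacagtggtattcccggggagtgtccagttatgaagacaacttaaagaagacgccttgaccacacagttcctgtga
Mcpt4 (chr14:56062261-56062560, minus strand): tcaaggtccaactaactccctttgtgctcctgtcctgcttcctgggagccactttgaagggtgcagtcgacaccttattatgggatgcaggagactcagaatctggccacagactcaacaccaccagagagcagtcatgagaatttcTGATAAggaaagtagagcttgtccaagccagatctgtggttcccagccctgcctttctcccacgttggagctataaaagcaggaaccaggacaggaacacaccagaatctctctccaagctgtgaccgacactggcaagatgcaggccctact
Hdc (chr2:126618629-126618928, minus strand): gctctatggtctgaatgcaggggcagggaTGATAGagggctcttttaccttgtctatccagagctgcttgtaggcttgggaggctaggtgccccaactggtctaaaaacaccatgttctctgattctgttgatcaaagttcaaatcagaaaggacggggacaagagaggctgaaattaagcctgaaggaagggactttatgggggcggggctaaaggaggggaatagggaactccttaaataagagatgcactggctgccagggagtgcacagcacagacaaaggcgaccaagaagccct
The match begins at position -46 in Cpa3, -79 in Cma1, -103 in Mcpt4 and -221 in Hdc, counted from the RefSeq start site. Promoters of 7 of the 8 genes were matched by symbol. Fcer1a held 1 such match and Ms4a2 held 3, while neither of the Kit windows held any. Of all 32851 RefSeq promoter windows, 29.8% held at least 1 match, so a match is a common feature and only describes these windows. Hdc held one too, and its level did not follow that of the proteases.

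Fcer1a and Ms4a2, 2 genes of FcεRI, were far less abundant. Fcer1a encodes the IgE-binding subunit of FcεRI (ENSMUSG00000005339, chromosome 1, 173221284 to 173227214, minus strand). It had 41, 6, 11, 24 and 38 counts in ADQ 1 to 5, against 48, 80, 46, 27 and 64 counts in control 1 to 5. In CPM, ADQ 2 to 4 lay below every control at 0.117, 0.210 and 0.527, while ADQ 1 at 0.887 and ADQ 5 at 0.588 lay above control 4 at 0.582. The means were 0.466 ± 0.310 CPM in ADQ and 1.1 ± 0.384 CPM in control (SD, n = 5 each; log2 fold change -1.24, SE 0.47, edgeR adjusted p = 0.267), the smallest adjusted p of the 7 members tested.

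Ms4a2, the signal-amplifying beta subunit of the same receptor (ENSMUSG00000024680, chromosome 19, 11615523 to 11623719, minus strand), had 15, 0, 0, 1 and 0 counts in ADQ 1 to 5, against 17, 9, 4, 0 and 5 counts in control 1 to 5. It was the member left out by the low-count filter. The counts of 0 allow up to 0.0602 CPM in ADQ 2, 0.0646 in ADQ 3, 0.0468 in ADQ 5 and 0.0620 in control 4 by counting error alone, taking 3 counts of the library total. ADQ 1 was the one ADQ library with more than 1 count, as it was the high one in the proteases.

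Kit did not follow the proteases. KIT is the growth factor receptor of mast cells and is also used by melanocytes, which are abundant in the choroid. Kit (ENSMUSG00000005672, chromosome 5, 75574916 to 75656722, plus strand) stood at 8.68, 10.7, 12.8, 11.1 and 12.6 CPM in ADQ 1 to 5, against 6.07, 10.9, 14.1, 9.81 and 6.96 CPM in control 1 to 5. ADQ 1, high in the proteases, was the lowest ADQ library, and all ADQ values lay inside the control range. The means were 11.2 ± 1.68 CPM in ADQ and 9.56 ± 3.21 CPM in control (SD, n = 5 each; log2 fold change 0.22, SE 0.21, edgeR adjusted p = 0.639). Summed CPM of 10 melanocyte and pigment markers, many of them shared with the RPE, was 7990 to 11200 in ADQ and 8900 to 12800 in control. The melanocyte share of Kit was not tested.

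Hdc, whose enzyme makes histamine, had a higher mean in ADQ, opposite to the proteases. Hdc (ENSMUSG00000027360, chromosome 2, 126593667 to 126619299, minus strand) stood at 1.32, 2.54, 2.23, 3.25 and 4.81 CPM in ADQ 1 to 5, against 2.04, 1.93, 1.46, 0.819 and 1.87 CPM in control 1 to 5. ADQ 2 to 5 were above every control and ADQ 1 was inside the control range, so the same library was the exception as in the proteases. Setting the lowest ADQ library aside separates the groups by itself. The share of all genes with that order was not computed, so it only describes the values. The means were 2.83 ± 1.31 CPM in ADQ and 1.63 ± 0.501 CPM in control (SD, n = 5 each; log2 fold change 0.80, SE 0.33, edgeR adjusted p = 0.314). The SD of the log2 ratio to Tpsb2 over the 10 libraries was 1.53 for Hdc and 1.41 for Kit, larger than the SD of 1.12 of Tpsb2 itself.

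Markers of rod photoreceptors, cells of the neighbouring retina, also differed between libraries. All 8 had log2 fold changes above 0, where 48.2% of all genes were below 0. EdgeR, DESeq2 and voom called 0 of them, and 0 had an unadjusted edgeR p under 0.05. Their summed CPM was 671, 298, 927, 2250 and 3340 in ADQ 1 to 5, against 1660, 333, 384, 393 and 294 in control 1 to 5. ADQ 5 and ADQ 4 were highest in both, and control 1 was the highest control in both, but ADQ 2 was among the lowest in rod markers and next after ADQ 5 and ADQ 4 in Hdc. With the mean of the rod markers as a covariate, chosen after the values were seen, the log2 fold change of Hdc was 0.42 (edgeR adjusted p = 0.624). With skeletal muscle, adipocyte or keratin markers as the covariate instead, it was 0.54, 0.65 and 0.69. The part of rod tissue in the level of Hdc was not tested. Neutrophils can also make histamine, and 9 of their markers summed to 17.2 to 27.8 CPM in ADQ and 16.9 to 40 CPM in control. Of the 5 tested, S100a8 (log2 fold change 0.56), Retnlg (0.83) and S100a9 (0.16) were above 0, as Hdc was, and Camp (-0.22) and Ltf (-3.69) were below 0. EdgeR and voom called 0 of these, with 3 at an unadjusted edgeR p under 0.05, where 13.8% of all genes had such a p. DESeq2 called 1 lower, where it called 3.78% of all genes with an adjusted p in either direction. The part of neutrophils in the level of Hdc was not tested.

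**Figure D3:**
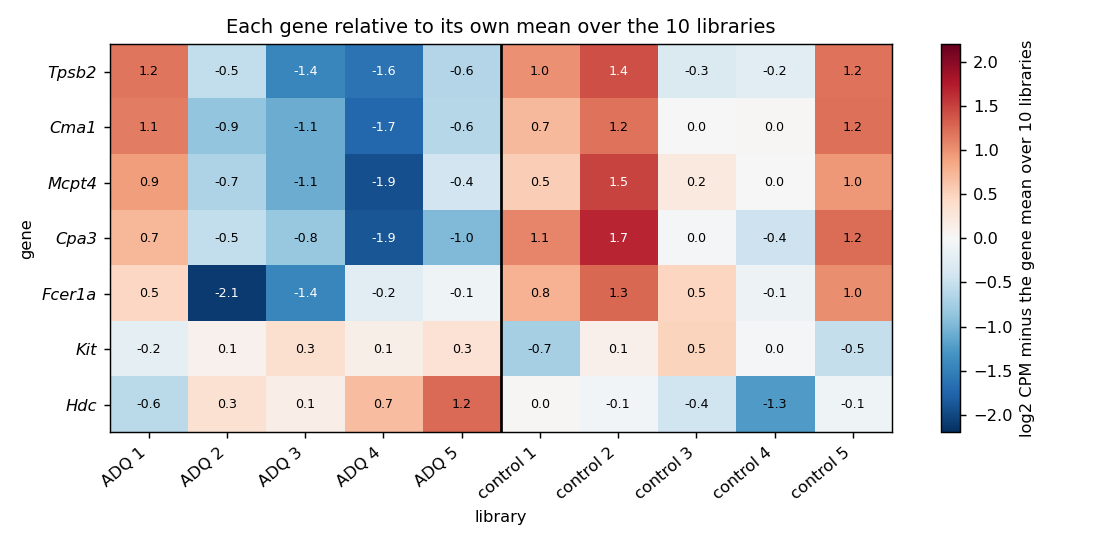
Log2 CPM of 7 mast cell genes minus each gene's mean over the 10 libraries, with ADQ libraries left of the line and control libraries right; red is above the mean and blue below. Tpsb2, Cma1, Mcpt4 and Cpa3 share one pattern, with ADQ 1 and control 1, 2 and 5 high, while Kit and Hdc have others.

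Of the 7 members tested, 0 were called with edgeR, where 0.827% of all genes were called in either direction, 0.087% as lower and 0.74% as higher. At an unadjusted p under 0.05 there were 3 of the 7, Cpa3 and Fcer1a lower and Hdc higher, where 13.8% of all genes had such a p, 5.85% lower and 7.96% higher. The members' median log2 fold change was -1.01, beside 0.01 over all genes tested, and 5 of the 7 were below 0, as were 48.2% of all genes. No member had groups that did not overlap, which 3.16% of all genes had.

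One library decided the size of the difference. Without ADQ 1 the log2 fold change was -1.77 for Tpsb2, -1.75 for Cma1, -1.68 for Mcpt4, -1.91 for Cpa3 and -1.59 for Fcer1a. Cma1 was then called (edgeR adjusted p = 0.0432, against 0.362 to 0.711 without any other single library), where 0.109% of all genes were called as lower and 0.606% as higher. ADQ 2 to 5 were below all controls in each of the 4 proteases, which held for 3.27% of all genes. Leaving out the highest ADQ library separates the groups by itself, so these values only show how much rests on it.

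Voom with sample quality weights, a limma fit that gives erratic libraries less say, gave ADQ 1 a weight of 0.548, the smallest of the 10. It called Mcpt4 (log2 fold change -1.79, adjusted p = 0.0479) and Cma1 (-1.69, adjusted p = 0.0368) lower, where 0.74% of all genes were called as lower and 2.47% as higher. The authors' deposited table lists Cma1 at a log2 fold change of -1.75 (adjusted p = 0.0248) and Mcpt4 at -1.85 (adjusted p = 0.0334), both past 0.05, where 1.63% of the genes in that table were lower and 3.79% higher. The authors' deposited table gives Tpsb2 -1.69 (adjusted p = 0.0551), Cpa3 -1.92 (adjusted p = 0.0626), Hdc 0.91 (adjusted p = 0.0986) and Kit 0.25 (adjusted p = 0.35), and does not list Fcer1a or Ms4a2. DESeq2 called 0 of the 7, where it called 3.78% of all genes to which it gave an adjusted p. At an unadjusted DESeq2 p under 0.05 there were 4 of the 7, and 15.1% of all genes.

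**Figure D4:**
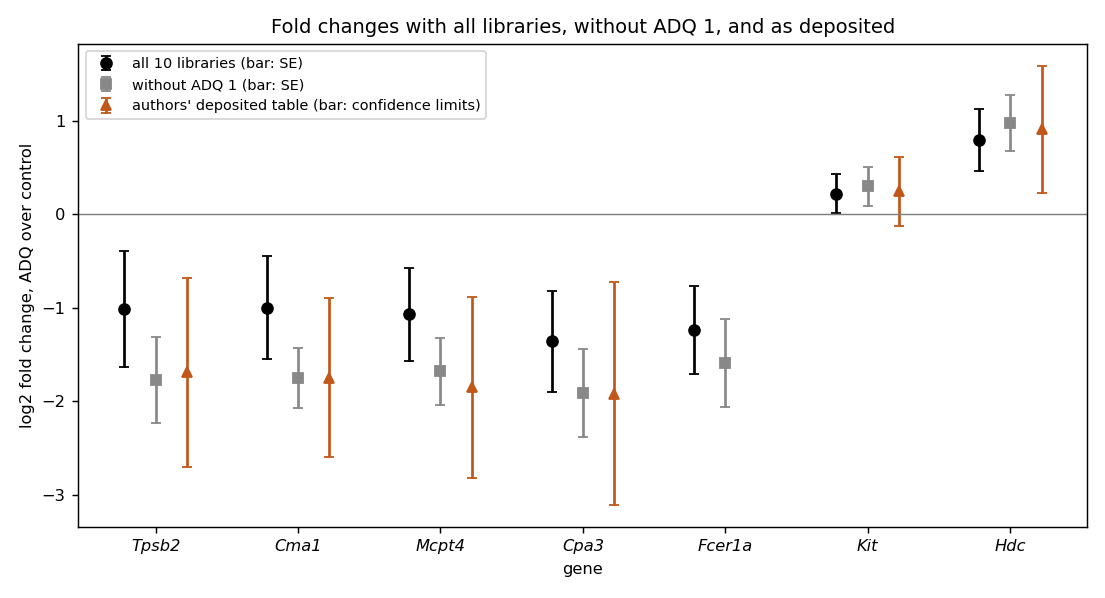
Log2 fold changes, ADQ over control, of 7 mast cell genes with all 10 libraries (circles, SE), without ADQ 1 (squares, SE) and in the authors' deposited table (triangles, its confidence limits; Fcer1a is not listed there). Without ADQ 1 the proteases lie between -1.68 and -1.91, near the authors' values.

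Per kilobase of exon, Tpsb2 and Cma1 were the most abundant members. Tpsb2 was at 7.10 ± 6.67 CPM per kb in ADQ and 14.3 ± 7.03 in control, and Cma1 at 6.71 ± 6.24 in ADQ and 13.4 ± 5.26 in control (SD, n = 5 each), which lie within each other's spread. Mcpt4 (3.12 ± 2.53 in ADQ, 6.55 ± 2.85 in control) and Cpa3 (2.38 ± 1.75 in ADQ, 6.11 ± 3.35 in control) came next and also lay within each other's spread. Kit, a long transcript, was at 1.25 ± 0.188 in ADQ and 1.07 ± 0.360 in control, and Fcer1a at 0.467 ± 0.310 in ADQ and 1.1 ± 0.385 in control, so that their mean ± SD ranges were apart in ADQ and overlapped in control. Hdc followed at 0.443 ± 0.205 in ADQ and 0.254 ± 0.0784 in control, and Ms4a2 was lowest at 0.0246 ± 0.0508 in ADQ and 0.0533 ± 0.0527 in control.

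Shared sequence between genes was small. Of the distinct 50-base stretches in GENCODE M21 transcripts, 5.48% of those of Mcpt4 occur in other genes, mainly Cma2, and 5.38% of those of Cma1 occur in the predicted gene Gm48934. For Ms4a2 2.1% occur in Ms4a4b, and for Hdc 0.141% occur in other genes, mainly Pdgfra. Tpsb2, Cpa3, Kit and Fcer1a shared none, Tpsb2 with its neighbour Tpsab1 included. Neither the read length nor the handling of shared reads is given in the sources used here.

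Mucosal mast cell proteases were sparse. Mcpt1 had 1 count in ADQ 1 and 0 in the other 9 libraries. Mcpt2 had 28, 0, 0, 1 and 0 counts in ADQ 1 to 5, against 11, 8, 0, 12 and 14 counts in control 1 to 5. ADQ 1 thus led here as well. Mcpt8, a basophil protease, had 10, 1, 0, 2 and 0 counts in ADQ 1 to 5 and 0 in all controls. Of the other basophil markers, Prss34 had 0 to 31 counts in ADQ and 4 to 29 in control, and Cd200r3 had 0 to 16 in ADQ and 4 to 16 in control. Il3ra, an interleukin receptor chain that other cell types use as well, was at 14.5 ± 2.63 CPM in ADQ and 12.7 ± 3.45 CPM in control (SD, n = 5 each; edgeR adjusted p = 0.645).

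Of 14 other protease and granule genes 8 were tested and 0 were called with edgeR (1 at an unadjusted p under 0.05; 1 lower with DESeq2, 0 with voom), with a median log2 fold change of -0.02. Tpsab1, a second tryptase, stood at 2.03, 1.39, 0.267, 0.242 and 1.13 CPM in ADQ 1 to 5, against 1.88, 2.62, 0.429, 0.625 and 2.89 CPM in control 1 to 5 (log2 fold change -0.74, SE 0.66, edgeR adjusted p = 0.633). It was low in ADQ 3 and ADQ 4 and in control 3 and control 4. Serpinb1a, a protease inhibitor, had the smallest adjusted p of the list (log2 fold change -0.62, edgeR adjusted p = 0.121). Srgn, the granule proteoglycan serglycin, used by many leukocytes, was at 94.1 ± 17.0 CPM in ADQ and 78.7 ± 13.6 CPM in control (SD, n = 5 each; edgeR adjusted p = 0.41).

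Of 12 other surface genes 6 were tested and 0 were called with edgeR, DESeq2 or voom (1 at an unadjusted edgeR p under 0.05), with a median log2 fold change of 0.02. Il1rl1, the receptor of the alarmin IL-33, was at 0.576 ± 0.280 CPM in ADQ and 0.576 ± 0.353 CPM in control (SD, n = 5 each). Mrgprb2, a mouse mast cell receptor for basic peptides, had 0 to 8 counts in ADQ and 0 to 14 in control and was not tested. Stem cell factor, Kitl, was at 22.6 ± 1.91 CPM in ADQ and 24.8 ± 2.06 CPM in control (SD, n = 5 each; edgeR adjusted p = 0.537). It is one of 6 growth factor genes tested, of which edgeR, DESeq2 and voom called 0 and 0 had an unadjusted edgeR p under 0.05. Of 9 transcription factors tested these tools also called 0 (1 at an unadjusted edgeR p under 0.05). Gata2 was at 21.4 ± 3.65 CPM in ADQ and 22 ± 3.91 CPM in control (SD, n = 5 each). Of 7 lipid mediator enzyme genes the 3 tools called 0 (1 at an unadjusted edgeR p under 0.05).

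Of 14 genes for FcεRI signalling, Fcer1g of the receptor itself included, 13 had log2 fold changes above 0, with a median of 0.33. Fcer1g, the gamma subunit, was at 243 ± 57.1 CPM in ADQ and 194 ± 33.9 CPM in control (SD, n = 5 each). Its log2 fold change was 0.32 (edgeR adjusted p = 0.39), opposite in sign to that of Fcer1a. Of all genes 48.2% were below 0, with a median of 0.01. Of the 14 signalling genes, 1 rose and 0 fell with edgeR, and 8 had an unadjusted p under 0.05. Over all genes edgeR called 0.74% higher, and 13.8% had such a p in either direction. DESeq2 called 2 higher and voom 3. Voom called 2.47% of all genes higher, and DESeq2 called 3.78% of those it gave an adjusted p, in either direction. Lcp2, an adaptor of mast cells, T cells and other leukocytes, was at 14.8 ± 2.15 CPM in ADQ and 7.34 ± 1.19 CPM in control (SD, n = 5 each; log2 fold change 1.02, SE 0.14, edgeR adjusted p = 0.00508), and kept its call without each single library. Of 10 markers of T and NK cells, which also use Lcp2, 9 had log2 fold changes above 0. EdgeR called 0 of the 10, with 9 at an unadjusted p under 0.05, while DESeq2 called 3 higher and voom 7. The sum of the 10 was at 128, 114, 85.3, 90 and 89.2 CPM in ADQ 1 to 5, against 28.6, 25.7, 28.4, 39.5 and 88.7 CPM in control 1 to 5. Control 5, the control with 0 counts of Adipoq, stood apart from the other controls and reached the level of ADQ. Of 10 macrophage markers, another cell type that uses these genes, 9 had log2 fold changes above 0 and 2 rose with edgeR. At an unadjusted edgeR p under 0.05 there were 3, and DESeq2 and voom each called 2 higher. Aif1 was at 53.7 ± 7.89 CPM in ADQ and 28.3 ± 5.90 CPM in control (SD, n = 5 each; log2 fold change 0.92, edgeR adjusted p = 0.00756) and kept its call without each single library. Adgre1 was at 68.7 ± 6.85 CPM in ADQ and 49.6 ± 6.19 CPM in control (SD, n = 5 each; log2 fold change 0.47, edgeR adjusted p = 0.0476) and lost its call without any 1 of the 10 libraries. The part of these cells in the levels of the signalling genes was not tested.

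A list of histamine receptor and breakdown genes also held F2rl1, for the receptor PAR2, and the leukotriene receptor genes Cysltr1 and Cysltr2. Of its 7 genes tested, 1 rose and 0 fell with edgeR, where 0.74% of all genes rose. The median log2 fold change was 0.07. Hrh2 and Cysltr2 (log2 fold change 0.94) had an unadjusted edgeR p under 0.05, as did 13.8% of all genes. DESeq2 and voom each called 1 higher. Voom called 2.47% of all genes higher, and DESeq2 called 3.78% of those it gave an adjusted p, in either direction. Hrh2, the H2 receptor, stood at 1.67, 1.27, 1.13, 1.25 and 0.99 CPM in ADQ 1 to 5, against 0.412, 0.276, 0.702, 0.431 and 0.27 CPM in control 1 to 5. The groups did not overlap, which held in either direction for 3.16% of all genes. The log2 fold change was 1.58 (SE 0.32, edgeR adjusted p = 0.0331), and the call held without 3 of the 10 single libraries, with an adjusted p of up to 0.0919 without ADQ 2. Hrh1 (0.880 ± 0.473 CPM in ADQ, 0.927 ± 0.211 in control) and the histamine-degrading enzyme gene Hnmt (36.8 ± 3.32 CPM in ADQ, 35.1 ± 2.54 in control) did not pass the test (SD, n = 5 each; edgeR adjusted p = 0.944 and 0.76).

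The genes whose pattern over the 10 libraries was most like that of the 4 proteases were ranked by the root mean square difference of centred log2 CPM, over 13464 other protein-coding genes whose mean reached 1 CPM. A gene that did not vary would stand at 1.02 log2 units. Tpsab1 came first at 0.63, followed by Angptl4, a lipase inhibitor, also at 0.63. Stpg4, Fndc11, Mroh6, Lrg1, Fcor, Cysrt1, Ifi27l2a and Slc18a1 stood at 0.67 to 0.73. Of the members outside the 4 proteases, Fcer1a was at 0.74, Ms4a2 at 0.80, Kit at 1.27 and Hdc at 1.44. The ranking depended on the measure. By Pearson correlation Lrg1 alone stayed among the 10 nearest genes, and Tpsab1 and Angptl4 did not.

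Neighbouring tissue in the sample differed between the libraries. All 5 tested of 7 keratins of cornea and conjunctiva had log2 fold changes below 0, as did 48.2% of all genes. EdgeR and voom called 0 of them and DESeq2 called 5, where it called 3.78% of all genes with an adjusted p. All 5 had an unadjusted edgeR p under 0.05, as did 13.8% of all genes. The summed CPM of the 7 keratins was 0.791 to 2.05 in ADQ and 2.41 to 2140 in control. ADQ 1 had 1.13 CPM of keratins and 65.7 CPM of the 4 proteases, and control 2, the highest in proteases at 83.3 CPM, had 2.41 CPM of keratins. Control 3, with 2140 CPM of keratins, had 29.3 CPM of proteases. Control 5 had 565 CPM of keratins and 70.8 CPM of proteases, control 1 had 179 and 57.9, and control 4 had 67.1 and 28.1. The keratin sums did not overlap between the groups, and the part of this tissue in the protease levels was not tested.

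Of 11 tested adipocyte markers 10 had log2 fold changes below 0, as did 48.2% of all genes, with 0 called by edgeR or voom. At an unadjusted edgeR p under 0.05 there were 5, where 13.8% of all genes had such a p. DESeq2 called 2 lower, where it called 3.78% of all genes with an adjusted p in either direction. The summed CPM of all 12 was 92.7 to 130 in ADQ and 94.1 to 265 in control. Control 5 had the 94.1 CPM of adipocyte markers and 70.8 CPM of proteases. Control 2 was the highest library in both, at 265 CPM of adipocyte markers and 83.3 CPM of proteases. The part of fat tissue in the protease levels was not tested. Skeletal muscle markers summed to 365 to 1990 CPM in ADQ and 1210 to 2820 CPM in control. With the mean of the adipocyte list as a covariate the log2 fold changes were -1.27 for Cpa3, -0.93 for Mcpt4, -0.94 for Tpsb2 and -0.95 for Cma1. With the muscle list they were -1.43, -1.23, -1.16 and -1.12 in the same order. Neither fit called any of these genes, which were not called without a covariate either. With the keratin list, whose levels do not overlap between the groups, they were -2.16, -1.83, -1.84 and -1.59. That fit called 0 genes lower over the whole table, so the lack of a call says nothing about these genes.

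**Figure D5:**
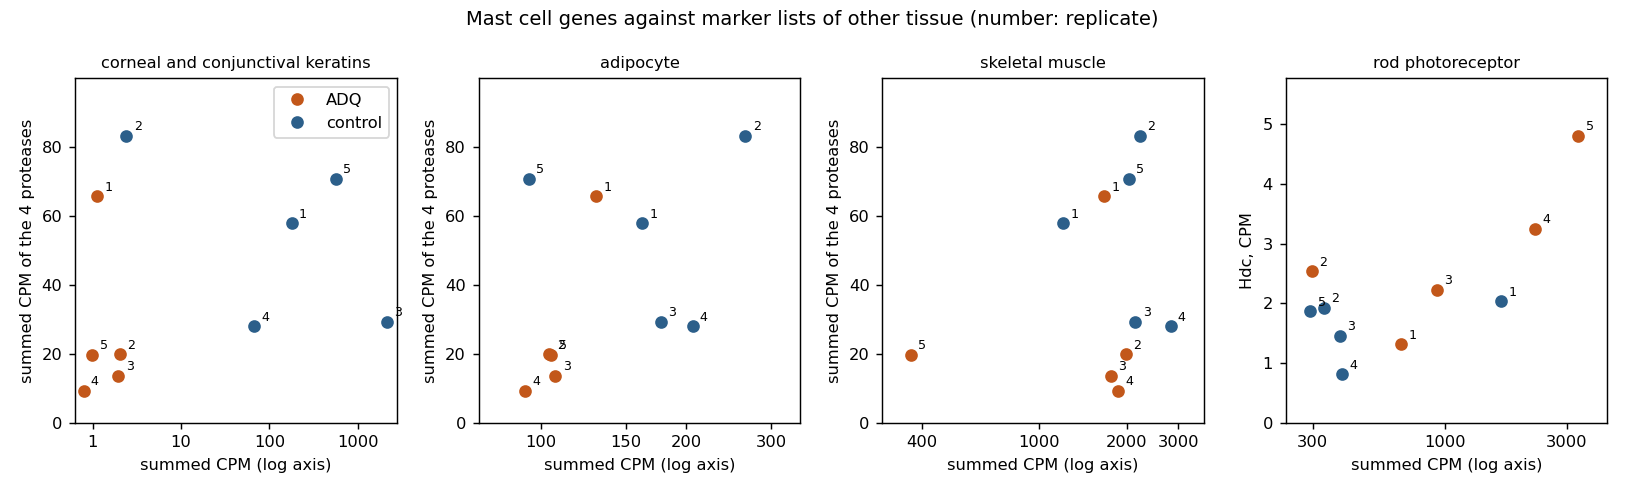
Summed CPM of the 4 proteases against summed CPM of keratins, adipocyte markers and skeletal muscle markers, and Hdc against rod photoreceptor markers (log x axes), one point per library, ADQ in orange and control in blue, labelled by replicate. Proteases are high in ADQ 1 with 1.13 CPM of keratins and in control 5 with 565 CPM of keratins. Hdc is highest in ADQ 5, where rod markers sum to 3340 CPM.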

How the data were processed

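Per the labels' protocols, RNA was extracted with TRIzol and columns, and cDNA was made by SMARTer. The submitters' processing notes name bcl2fastq, DRAGEN, edgeR, limma and the build GRCm38, without versions or roles. The deposited table holds raw counts per Ensembl gene and library. Its 55774 entries hold 287 repeats, which were dropped. A second table, also the authors' deposited work, gives log2 CPM, log2 fold changes with limits and p-values for 15860 genes, and its log2 CPM equal those of the counts plus 0.5 up to a constant per library (SD at most 2.9e-09). Groups and replicate numbers come from the sample titles.

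Counts were filtered by filterByExpr (minimum count 10, minimum total 15), scaled by TMM and tested with edgeR 4.0.16 (robust quasi-likelihood, group as the single term; limma 3.58.1, R 4.3.3), after the procedure was tested on simulated data. Each SE was derived from the fold change and its F statistic. Log2 CPM carry a prior count of 2. Exon lengths and positions come from GENCODE M21 on GRCm38. Alternatives were other scalings, filters and tools (DESeq2 1.42.0, voom), leaving out single libraries, a block for the replicate number, and marker lists as covariates. The genes, lists and rules were chosen with earlier results of these data known. The rule for named genes took all members, Adipoq, up to 4 genes per list with the smallest p, and the 10 nearest genes; genes of a list with a known mast cell role that fall outside it were chosen after their values were seen. No pair of libraries was a duplicate (smallest chi-square 33.9 per degree of freedom). Counting limits cover counting error only.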

Additional observations from a re-analysis of the deposited data

Results flagged for a closer look

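Among 16 groups of 5 values (8 genes in ADQ and in control), 3 held a value far from the other 4, by a gap criterion that chance meets in about 1 of 20 groups. All 3 were ADQ 1: Tpsb2 at 30.0 CPM (other ADQ libraries 4.24 to 9.06), Cma1 at 19.3 CPM (others 2.64 to 5.69) and Ms4a2 at 0.325 CPM (others 0 to 0.022). The 3 values come from 1 library and are not independent of each other.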

How the results depend on the processing

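The count of called members, 0 with edgeR, stayed 0 in 20 of 23 alternatives. It was 2 with voom and quality weights (Mcpt4 and Cma1), 1 with the replicate block (Cpa3, log2 fold change -1.42, adjusted p = 0.0498), and 0 to 1 when single libraries were left out. Deviations of same-numbered samples from their group means correlated at -0.11 to 0.16, so the numbers are not shown to pair samples. Over the whole table the block called 302 genes lower and 392 higher, against 18 and 153 without it. No member changed direction under any alternative: the log2 fold change ran from -2.16 to -1.08 for Cpa3, -1.83 to -0.80 for Mcpt4, -1.75 to -0.79 for Cma1, -1.84 to -0.80 for Tpsb2, -1.77 to -0.99 for Fcer1a, 0.42 to 0.98 for Hdc and 0.10 to 0.43 for Kit. Ms4a2 could be tested only without a count filter (-1.13, adjusted p = 0.696). Calls among the other listed genes, 4 with edgeR, numbered 18 with DESeq2, 13 with voom, 10 with a non-robust fit, 8 with the replicate block and 2 to 17 without single libraries (17 without control 5); the cause was not tested. Ranked by Pearson correlation, 1 of the 10 nearest genes, Lrg1, stayed among the 10. The low counts of Fcer1a and Ms4a2 limit what can be said of the receptor.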

Other observations

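Enpp3, a surface enzyme of mast cells, basophils and several epithelia, had 1.41 to 2.76 CPM in ADQ, against 25.5 CPM in control 3 and 2.43 to 6.86 CPM in the other controls. Control 3 was also the library with the most keratin, at 2140 CPM. Gata1, a transcription factor of mast cells and red cell precursors, had 27 counts in ADQ 5 and 0 to 2 in the other ADQ libraries, against 0 to 4 in control.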
